A study of Mus musculus with 10 samples.

Results

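The enzymes that write and erase methyl groups on histone lysines were followed in limb muscle of mouse foetuses from hyperglycaemic dams. Members were chosen by gene symbol alone, as the lysine demethylases Kdm1 to Kdm8 and the methyltransferases of the Kmt2, Kmt5, Setd, Ehmt, Suv39h, Ezh, Dot1l, Nsd and Smyd2 to Smyd5 families. Of 55401 genes in the deposited table, 50 symbols matched, and 47 were kept after Kdm5c, Kdm5d and Kdm6a had been left out. The rule itself uses names and no measured value.

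RNA was taken from limb muscle (a mixture of cells, wild type, ICR strain) at embryonic day 18.5. In the GDM group (5 libraries) the dams had been injected with streptozotocin, a toxin of pancreatic beta cells that the labels spell streptozocozin, at gestational days 6.5 and 12.5. In the CTR group (5 libraries) the dams had received the dissolving buffer alone on the same days. The methods describe the foetuses as male and the model as induced by a toxin in the dam, the labels give neither sex nor litter, and each p therefore measures the spread between samples that may share a dam.

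Histone lysine methylation is a reversible mark on chromatin. SET domain enzymes and DOT1L use S-adenosylmethionine to place it, and it is removed by the flavin-dependent KDM1 enzymes or by Jumonji enzymes, which need oxygen, iron and 2-oxoglutarate. Methylation of H3K4 and H3K36 is found at active genes, whereas methylation of H3K9 and H3K27 by the SUV39H, G9A and polycomb enzymes marks silenced chromatin. In muscle precursors EZH2 holds differentiation genes silent, and its level is known to fall as the cells leave the cell cycle. Because Jumonji enzymes use oxygen, and because several of their genes are targets of hypoxia-inducible factor (HIF), Kdm3a, Kdm4b, Kdm4c, Kdm5b and Kdm6b are described apart as hypoxia-responsive erasers.

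Promoter sequence is shown first for 4 members, Kdm3a because it is a classic HIF target and the others because they hold a searched motif and were higher on the deposited values. RefSeq promoter windows of 300 bases (250 before and 50 after a start site, build GRCm38.p6) existed for 35 of the 47 members, in 47 windows. The core of the hypoxia response element, ACGTG on either strand, was found in 12 of these 47 windows (25.5%), belonging to 11 genes, and in 19.6% of all 32851 windows. It overlaps the E-box CACGTG, so the same letters also fit other factors. An E2F site (TTTCCCGC or TTTGGCGC, either strand) was found in 2 of the 47 windows (4.26%), those of Ezh2 and Kmt5c, and in 1.56% of all windows. Capitals mark the matches, and a match is a description of letters and not of binding.
Kdm3a, chr6:71632918-71633017, minus strand, positions -100 to -1: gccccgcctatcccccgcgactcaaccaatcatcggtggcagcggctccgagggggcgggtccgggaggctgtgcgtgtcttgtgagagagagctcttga
Kdm4c, chr4:74251779-74251878, plus strand, positions -100 to -1: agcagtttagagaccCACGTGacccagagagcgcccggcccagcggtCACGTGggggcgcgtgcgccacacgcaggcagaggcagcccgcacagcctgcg
Kdm5b, chr1:134559928-134559998, plus strand, positions -250 to -180: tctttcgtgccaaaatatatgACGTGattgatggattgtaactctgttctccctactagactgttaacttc
Ezh2, chr6:47595011-47595040, minus strand, positions -10 to 20: ttgggttgctgcgTTTGGCGCtcggtccgg
In Kdm4c both matches were the palindrome CACGTG, ahead of the more downstream of its start sites. None of the Kdm3a windows held ACGTG or an E2F site. Smyd5 and Suv39h1 also held ACGTG, at -75 and -57 from a start site, and so did Ehmt2 and Ezh2. Dot1l, Kdm7a, Kdm8, Kmt5b and Smyd4 held it too, and these did not pass on the deposited values. Neither did Kmt5c, which held the other E2F site.

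Several properties of the libraries bear on every value below. Depth, estimated from genes with a single transcript, came to about 18 to 21.1 M fragments in the GDM libraries and 14.6 to 16.8 M in the CTR libraries, so effects of depth and of group cannot be told apart. Mitochondrially encoded genes took 9.43 to 12.3% of the summed FPKM (fragments per kilobase of transcript and per M fragments) in GDM and 16.3 to 19.0% in CTR, and the 20 highest genes took 21.6 to 24.2% and 31.7 to 34.3%. Over all 13363 tested genes the median log2 fold change was 0.15, and median ratio scaling, which divides a library by its typical ratio to the mean of all 10, moved it by -0.15. Each change is therefore given on the deposited FPKM and again after this scaling. Markers of the muscle fibre were present in every library, with a summed level of 21706 to 30117 FPKM in GDM and 37329 to 44377 in CTR, and 12 of 15 were lower in GDM (13 after scaling), while the embryonic myosin gene Myh3 was higher (320 ± 137 FPKM in CTR and 947 ± 87.3 in GDM). All 15 proliferation genes listed were higher, with sums of 216 to 246 FPKM against 104 to 162, and stayed higher after scaling. Of 8 muscle progenitor genes 6 were higher (5 after scaling) and Chrna1 was lower, of 11 tested fat cell genes 9 were lower (11 after scaling), and all 6 tested chondrocyte genes were higher. Of the endothelial markers 5 of 8 were lower, and of the myeloid, Schwann cell and erythroid markers 2 of 7, 2 of 6 and 2 of 7 were lower, with 0 higher in each of these lists. After scaling the lower counts in these lists were 7, 4, 3 and 2. In addition, 4 of 7 fibroblast markers were higher (3 after scaling). Markers of skin keratinocytes set a pair of GDM libraries apart, with the sum of 5 genes at 438 FPKM in GDM replicate 1 and 94.5 in GDM replicate 3, against 1.85 to 3.58 in the other GDM libraries and 1.57 to 2.70 in CTR. Krt5, for example, was at 148 and 28.4 FPKM in these libraries and at no more than 0.163 in CTR, and the 1 keratinocyte marker that could be tested did not pass. Fewer cells of a type and less RNA per cell cannot be told apart in such samples, and the part of these lists in the results below was not tested. CTR replicate 1 had 1.16 FPKM of Xist against at most 0.0315 in the other 9 libraries, while the Y-linked Ddx3y was at 9.13 FPKM or more in all 10.

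All but 3 of the 47 genes were expressed at a testable level, with mean FPKM between 1.00 (Suv39h2) and 27.9 (Smyd2) and a median of 4.81. Smyd2, which methylates histones and several cytoplasmic proteins, was the most abundant member (25.7 ± 2.96 FPKM in GDM and 30.05 ± 4.0 in CTR, SD, n = 5 each). Ehmt2, encoding the H3K9 methyltransferase G9A, and Setd3, the actin histidine methyltransferase, followed. Kdm4d (0.00 to 0.06 FPKM, a testis gene in adults), Setd4 (0.49 to 0.92) and Smyd3 (0.52 to 0.90) fell below the filter of 1 FPKM in at least 5 libraries and were not tested. Suv39h2 passed that filter only through its GDM libraries, so its call adds no support to a count. Summed over the 47 genes, the level was 283 to 312 FPKM in the GDM libraries and 236 to 263 in the CTR libraries. On these deposited values the groups did not overlap. The factors of the median ratio scaling were 1.05 to 1.11 in GDM and 0.926 to 0.955 in CTR. Sums divided by these factors overlapped between the groups.

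**Figure D1:**
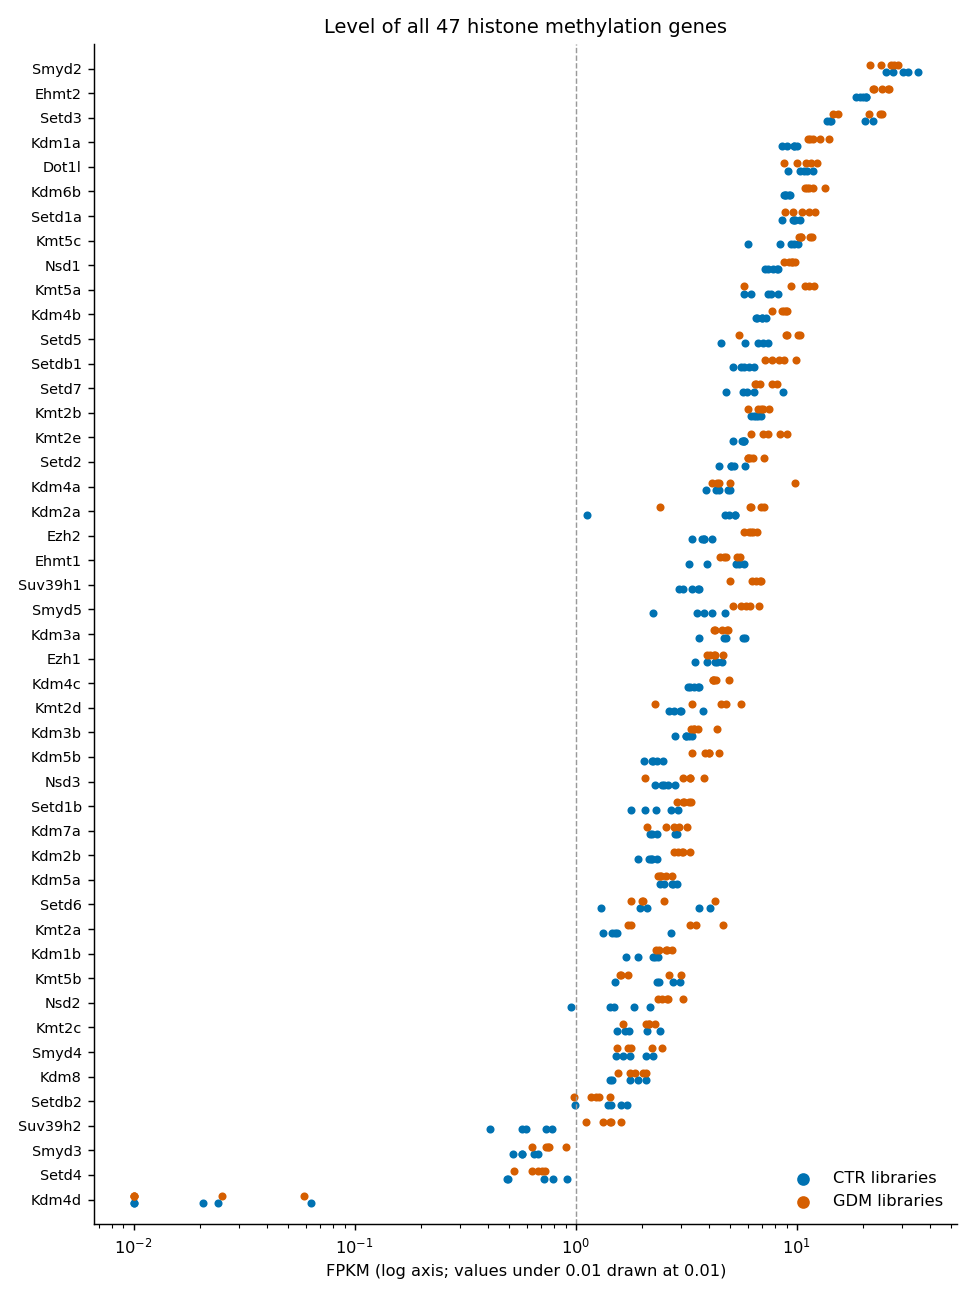
FPKM of all 47 genes (vertical, ordered by mean) in each of the 5 CTR and 5 GDM libraries (points) on a log axis, with the filter of 1 FPKM as a dashed line. Smyd2, Ehmt2 and Setd3 stand highest, Kdm4d lies near 0, and in Kdm2a 1 library of each group lies far below the rest.

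Of 44 tested members, 17 were higher in GDM (limma, Benjamini-Hochberg adjusted p under 0.05 over all tested genes), 0 were lower on the deposited values and 27 did not pass. The share of 38.6% higher stood beside 35.1% of all tested genes higher and 10.9% lower, so a higher call was about as common among these enzymes as among genes in general. The median log2 fold change was 0.25 against 0.15 over all tested genes, and 38 of 44 values were positive (86.4%, against 67.8% of all tested genes), or 29 of 44 after scaling (65.9% against 49.9%). At an unadjusted p under 0.05, 22 members were higher (50.0%, against 40.2% of all tested genes) and 0 lower (12.8% of all tested genes). Limma without trend and robust variance likewise gave 17 higher and 0 lower, beside 4692 higher and 1458 lower over all tested genes. After median ratio scaling 9 members were higher and 2 lower, beside 19.2% higher and 19.4% lower over all tested genes, and the median was 0.08. Every GDM library lay above every CTR library in 17 members (27.2% of all tested genes) and below in 0 (7.43% of all tested genes). Of these 17, 16 were also called, Setd1b being called with overlapping libraries and Kmt5c not called (adjusted p = 0.059) without overlap. After scaling 7 members lay above (15.9%) and 1 below, beside 14.7% and 14.4% of all tested genes. Suv39h2, which passed the filter only through its GDM libraries, is within each of these higher counts. A filter of 1 FPKM in every library, which leaves out Suv39h2 and Nsd2, gave 15 of 41 members and 4201 of 11341 genes higher.

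The changes were small. Of the 17 higher members, 6 had a ratio of mean FPKM of at least 1.5, namely Suv39h1, Suv39h2, Ezh2, Kdm5b, Nsd2 and Smyd5, and the other 11 lay between 1.21 and 1.5. The 9 that stayed higher after scaling were these 6 with Setdb1, Kdm2b and Kdm6b. The 8 that no longer passed were Kmt2e, Kdm1a, Setd1b, Kdm4b, Kdm4c, Setd2, Ehmt2 and Nsd1, and for them the direction remained positive.

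**Figure D2:**
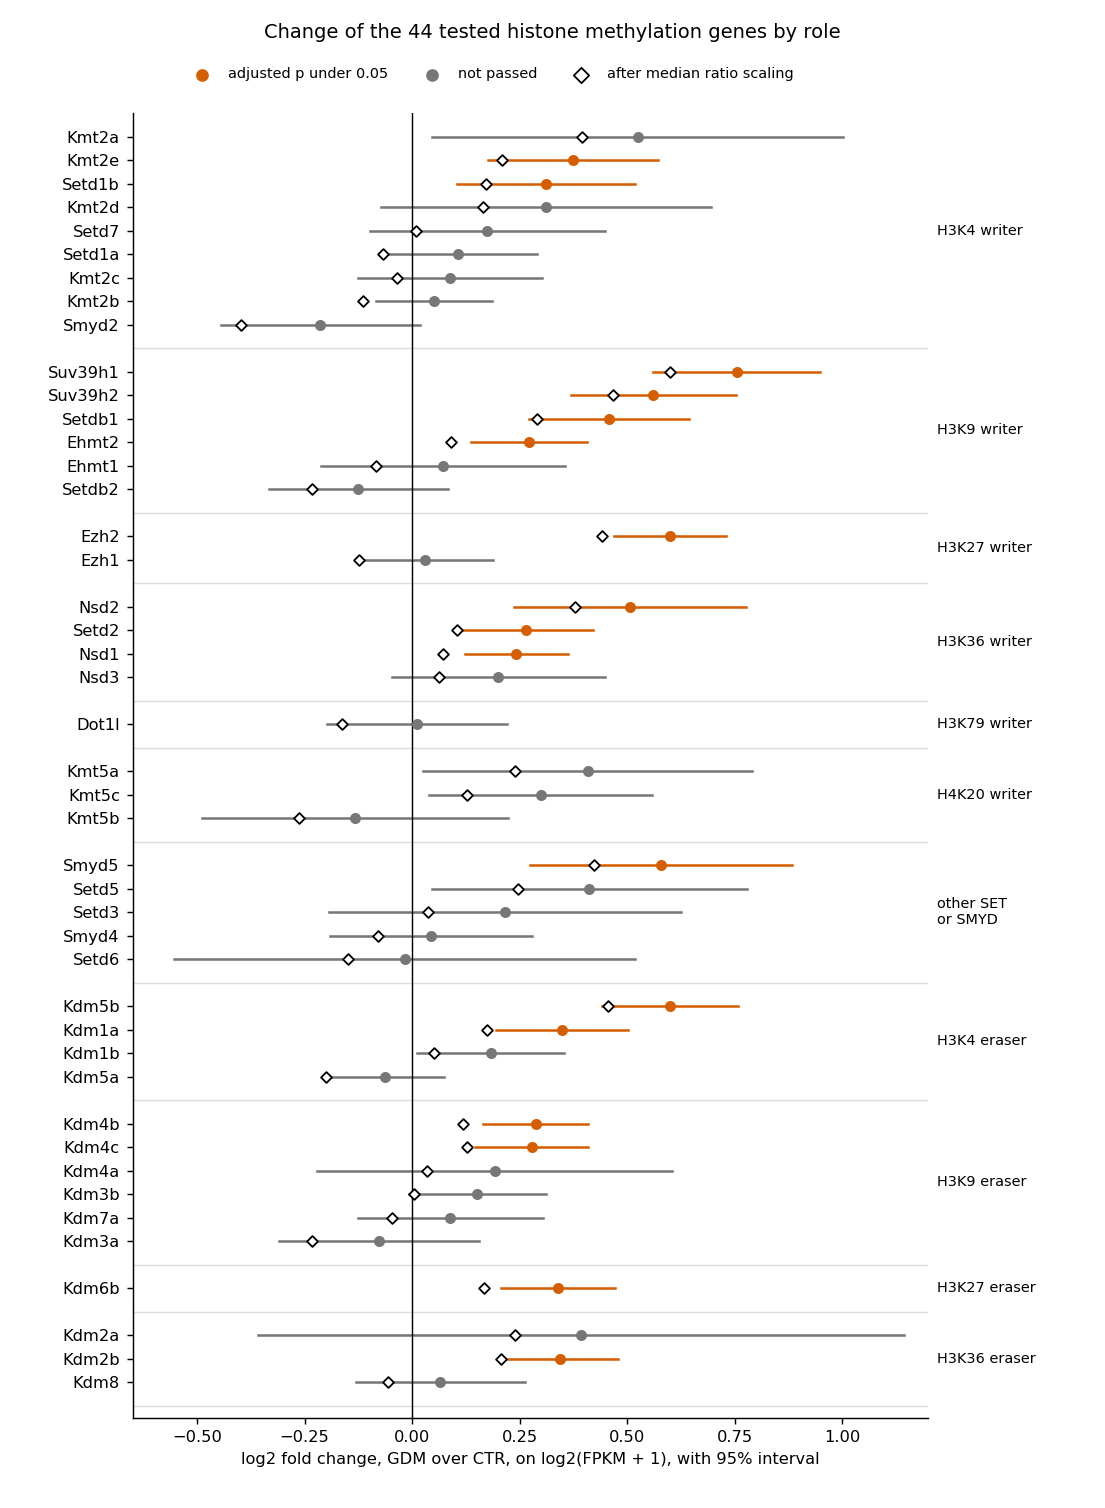
Log2 fold change (GDM over CTR) of the 44 tested members on log2(FPKM + 1), grouped by the residue they write or erase, with 95% intervals (lines) and the value after median ratio scaling (open diamonds). Orange marks the 17 members past the threshold, from Suv39h1 at 0.75 to Nsd1 at 0.24, and every diamond lies to the left of its filled point.

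The H3K9 writers held the largest change. Suv39h1, which trimethylates H3K9 in pericentromeric heterochromatin, measured 6.92, 6.84, 6.53, 6.25 and 4.98 FPKM in GDM replicates 1 to 5 and 3.35, 3.63, 2.93, 3.59 and 3.07 in CTR replicates 1 to 5. The lowest GDM library was above the highest CTR library. The log2 fold change was 0.75 ± 0.09 (SE, adjusted p = 9.8e-05) and 0.60 after scaling (adjusted p = 2.8e-04). Suv39h1 lies on the X chromosome (chrX:8061171-8074760), and it was called in every fit without 1 library, that without CTR replicate 1 included. Its paralogue Suv39h2 was far less abundant. It measured 1.61, 1.44, 1.33, 1.44 and 1.12 FPKM in GDM and 0.73, 0.41, 0.78, 0.57 and 0.60 in CTR, and again the groups did not overlap. The log2 fold change of 0.56 ± 0.09 (adjusted p = 5.0e-04) understates a 2.24-fold ratio of means, since levels this low are compressed by the pseudocount of 1. After scaling it was 0.47 (adjusted p = 0.0018). The ratio of Suv39h1 to Suv39h2 was 4.29 to 4.91 in GDM and 3.75 to 8.82 in CTR, so the share of each within the pair overlapped between groups.

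Setdb1, the H3K9 methyltransferase recruited by TRIM28 to retroelements, was at 8.38 ± 1.05 FPKM in GDM and 5.81 ± 0.48 in CTR (log2 fold change 0.46, adjusted p = 0.0014, scaled 0.29, adjusted p = 0.016). Ehmt2 measured 25.8, 26.2, 22.4, 24.3 and 22.3 FPKM in GDM and 18.6, 20.6, 19.3, 20.02 and 20.6 in CTR. These libraries did not overlap, and the change of 0.27 ± 0.06 passed (adjusted p = 0.0044), but at 0.09 after scaling it did not (adjusted p = 0.21). After scaling the groups overlapped. Ehmt1, which forms a heterodimer with G9A, was at 4.97 ± 0.45 and 4.76 ± 1.09 FPKM and did not pass (log2 fold change 0.07, 95% interval -0.21 to 0.36). Setdb2 was at 1.22 ± 0.16 and 1.43 ± 0.27 FPKM and did not pass either. Among 8 listed readers of H3K9 methylation and partners of G9A and SETDB1, 5 were higher (35.1% of all tested genes), 0 lower and 3 not passed. After scaling 2 were higher (19.2% of all tested genes). Those 2 had the smallest adjusted p. Cbx5, encoding the heterochromatin protein HP1 alpha, went from 12.9 ± 1.38 to 21.4 ± 0.61 FPKM, and Trim28 from 34.6 ± 2.27 to 54.5 ± 4.04 FPKM.

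Of the pair of H3K27 writers, which are alternative catalytic subunits of polycomb repressive complex 2 (PRC2), only Ezh2 passed. Ezh2 (chr6:47530139-47595341) measured 6.32, 6.62, 5.80, 6.11 and 6.20 FPKM in GDM and 3.71, 3.37, 3.80, 4.12 and 3.80 in CTR, with a wide gap between the groups. The log2 fold change was 0.60 ± 0.06 (adjusted p = 4.3e-05) and 0.44 after scaling (adjusted p = 2.4e-04). Ezh1, the form that prevails in non-dividing tissue, measured 4.62, 3.94, 4.24, 4.03 and 4.27 FPKM in GDM and 3.49, 4.36, 3.93, 4.60 and 4.26 in CTR. These ranges overlapped almost wholly, with a log2 fold change of 0.03 (95% interval -0.13 to 0.19). The ratio of Ezh2 to Ezh1 was 1.37 to 1.68 in the GDM libraries and 0.772 to 1.07 in the CTR libraries. Ezh2 thus exceeded Ezh1 in 5 of 5 GDM libraries and, within CTR, in replicate 1 alone. A ratio within a library does not depend on the scaling between libraries.

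**Figure D3:**
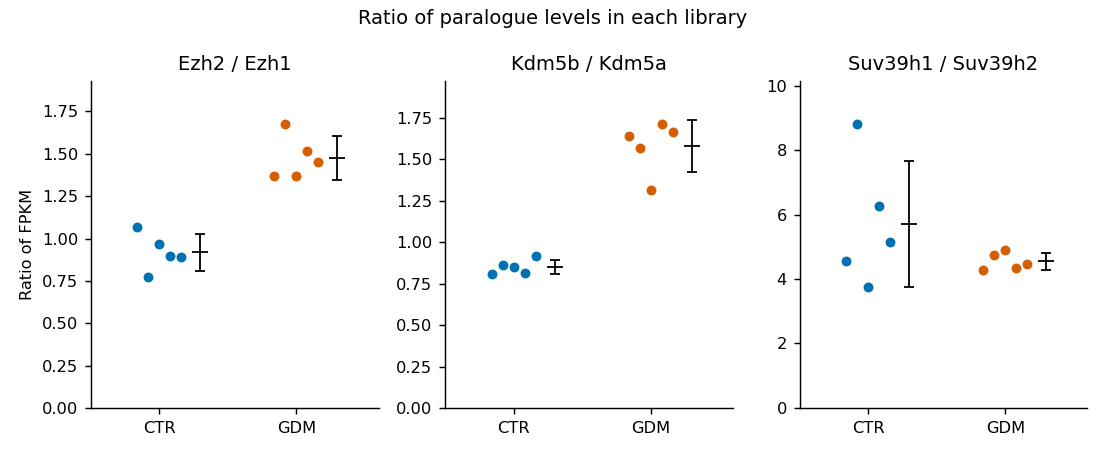
Ratio of FPKM within 3 pairs of paralogues in each library (points), with the mean and SD of 5 libraries beside them. Ezh2 over Ezh1 and Kdm5b over Kdm5a did not overlap between CTR and GDM, whereas Suv39h1 over Suv39h2 did.

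Other subunits of PRC2 were mostly higher as well. Of 9 tested partners 6 were higher (35.1% of all tested genes), 0 lower and 3 not passed. After scaling 4 were higher (19.2% of all tested genes). Their median log2 fold change was 0.49, against 0.15 over all tested genes. The accessory subunit Aebp2 went from 3.20 ± 0.12 to 5.17 ± 0.14 FPKM and the H3K27 methylation reader Eed from 4.92 ± 0.38 to 7.29 ± 0.51 FPKM. Suz12, the scaffold of the complex, was at 10.7 ± 0.56 FPKM in GDM and 7.18 ± 2.75 in CTR and did not pass (adjusted p = 0.082). CTR replicate 4 was at 2.36 FPKM and the remaining CTR libraries at 7.81 to 9.25. Every GDM library (10.2 to 11.4 FPKM) lay above every CTR library. The change of Ezh2 and Suv39h1 was close in size to that of the 15 proliferation genes, which had a median log2 fold change of 0.72 (0.53 after scaling) and of which Top2a, for example, went from 8.41 ± 1.96 to 17.9 ± 1.06 FPKM. The part of cell division in these results was not tested.

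Among the H3K36 writers, 3 of 4 were higher (35.1% of all tested genes) and 1 remained so after scaling (19.2% of all tested genes). Nsd2, which dimethylates H3K36, measured 2.46, 3.04, 2.62, 2.60 and 2.35 FPKM in GDM and 2.18, 1.48, 1.84, 1.43 and 0.95 in CTR. The groups were separated by a narrow gap, with a log2 fold change of 0.51 ± 0.12 (adjusted p = 0.0064, scaled 0.38, adjusted p = 0.033). After scaling they overlapped. Its paralogue Nsd1 measured 9.51, 9.81, 9.50, 8.76 and 9.28 FPKM in GDM and 7.44, 8.20, 8.15, 7.20 and 7.85 in CTR. The change of 0.24 ± 0.05 passed (adjusted p = 0.0042) and fell to 0.07 after scaling (adjusted p = 0.32). Setd2, the enzyme that trimethylates H3K36 behind elongating polymerase, was at 6.35 ± 0.45 and 5.12 ± 0.49 FPKM and lost its call in the same way (adjusted p = 0.011, scaled adjusted p = 0.23), and also without GDM replicates 1 and 3 together (adjusted p = 0.051). Nsd3 was at 3.10 ± 0.65 and 2.53 ± 0.20 FPKM and did not pass (0.20, adjusted p = 0.17), but without GDM replicate 2 it did (0.30, adjusted p = 0.010).

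Few of the H3K4 writers passed. Of 9 tested, 2 were higher (Setd1b, and Kmt2e, which is grouped here by its family), 0 lower and 7 not passed. Of all tested genes 35.1% were higher. After scaling none was higher (19.2% of all tested genes) and Smyd2 was lower (19.4% of all tested genes). Kmt2e, a SET domain protein of the MLL family that binds H3K4 methylation, was at 7.63 ± 1.15 FPKM in GDM and 5.62 ± 0.27 in CTR (log2 fold change 0.37, adjusted p = 0.0061, scaled adjusted p = 0.084). Setd1b, a catalytic subunit of the COMPASS complex, was at 3.12 ± 0.17 and 2.34 ± 0.45 FPKM (0.31, adjusted p = 0.020, scaled adjusted p = 0.18), and its call was also lost without GDM replicates 1 and 3 together (adjusted p = 0.068) or GDM replicate 3 and CTR replicate 5 together (adjusted p = 0.060). Kmt2a, the founding MLL gene, ranged from 1.72 to 4.65 FPKM in GDM and from 1.33 to 2.70 in CTR, and its log2 fold change of 0.52 did not pass (adjusted p = 0.070). It passed without GDM replicate 3 (0.65, adjusted p = 0.030), GDM replicate 4 (0.64, adjusted p = 0.036) or CTR replicate 1 (0.64, adjusted p = 0.033). Kmt2b, Kmt2c, Kmt2d, Setd1a and Setd7 had log2 fold changes from 0.05 to 0.31 and did not pass, although Kmt2d passed without GDM replicate 4 (0.46, adjusted p = 0.016) and Setd7 without CTR replicate 4 (0.28, adjusted p = 0.034). Smyd2 was at a log2 fold change of -0.21 on the deposited values (adjusted p = 0.12) and at -0.40 after scaling (adjusted p = 0.013). Of 11 tested partners of the COMPASS and MLL complexes 7 were higher (35.1% of all tested genes), 0 lower and 4 not passed. After scaling 4 were higher (19.2% of all tested genes). Psip1 went from 11.4 ± 1.05 to 17.9 ± 0.90 FPKM and Wdr82 from 11.3 ± 1.10 to 18.02 ± 1.17 FPKM.

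The writers of H4K20 and H3K79 did not pass. Kmt5a, the H4K20 monomethyltransferase whose protein is known to rise and fall with the cell cycle, measured 9.40, 10.9, 11.3, 12.02 and 5.75 FPKM in GDM and 8.20, 7.399, 5.76, 7.64 and 6.19 in CTR. In 4 GDM libraries Kmt5a was above every CTR library, and GDM replicate 5 was level with the lowest of them. The log2 fold change was 0.41 ± 0.17 (adjusted p = 0.077), and without GDM replicate 5 it was 0.57 (adjusted p = 0.0024). Kmt5c was at 10.9 ± 0.68 and 8.76 ± 1.66 FPKM (0.30, and without CTR replicate 5 0.35, adjusted p = 0.039), Kmt5b at 2.11 ± 0.66 and 2.40 ± 0.56, and Dot1l, the only H3K79 methyltransferase, at 10.8 ± 1.39 and 10.6 ± 1.04 FPKM (log2 fold change 0.01, 95% interval -0.20 to 0.22).

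Of the other SET or SMYD proteins, 1 of 5 tested was higher (35.1% of all tested genes). Smyd5 (chr6:85431989-85446435) measured 6.14, 6.75, 5.92, 5.17 and 5.60 FPKM in GDM and 2.24, 4.72, 4.15, 3.82 and 3.55 in CTR. CTR replicate 1 was the lowest, and the remaining CTR libraries still lay below every GDM library. After scaling the groups overlapped. The log2 fold change was 0.58 ± 0.14 (adjusted p = 0.0060, scaled 0.42, adjusted p = 0.032). Setd5 was at 8.79 ± 1.95 and 6.30 ± 1.15 FPKM and did not pass (0.41, adjusted p = 0.064). It passed without GDM replicate 2 (0.55, adjusted p = 0.0056) and after rescaling without mitochondrially encoded genes (0.45, adjusted p = 0.049). Setd3, Setd6 and Smyd4 did not pass.

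**Figure D4:**
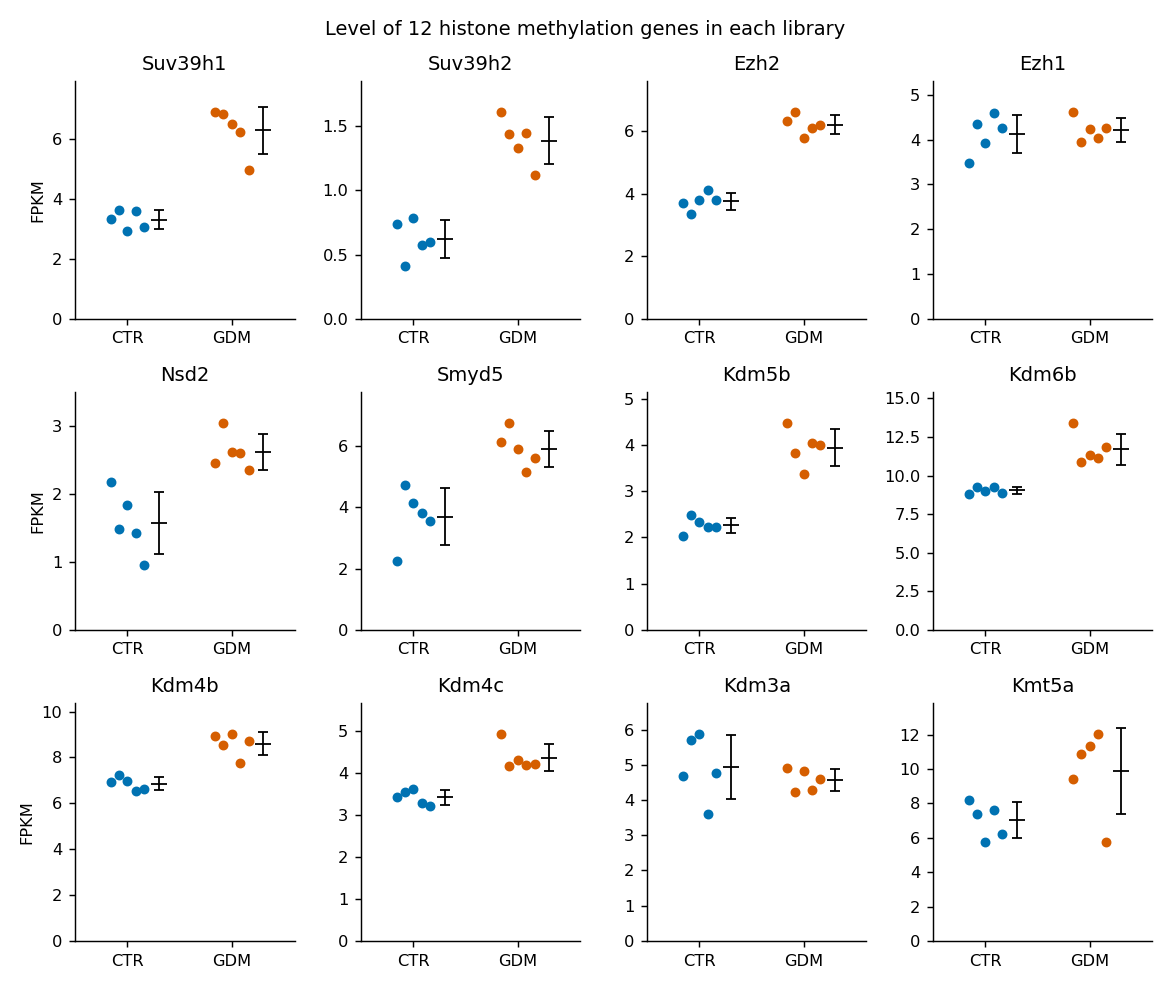
FPKM of 12 members in each CTR and GDM library (points), with mean and SD of 5 libraries beside them and every axis starting at 0. In Suv39h1, Suv39h2, Ezh2, Nsd2, Smyd5, Kdm5b, Kdm6b, Kdm4b and Kdm4c the groups did not overlap, and in Ezh1, Kdm3a and Kmt5a they did. After median ratio scaling, which is not drawn, the groups also overlapped in Nsd2, Smyd5, Kdm4b and Kdm4c.

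Of the 5 hypoxia-responsive erasers 4 were higher in GDM, beside 35.1% of all tested genes. After scaling 2 were higher (Kdm5b and Kdm6b), beside 19.2% of all tested genes. Kdm3a, the H3K9 demethylase most often used as a HIF target, was not among the 4. Kdm3a (chr6:71588972-71632990) measured 4.90, 4.24, 4.84, 4.29 and 4.60 FPKM in GDM and 4.69, 5.72, 5.87, 3.60 and 4.77 in CTR. All GDM values lay within the CTR range, with a log2 fold change of -0.08 ± 0.11 (95% interval -0.31 to 0.16, adjusted p = 0.58). After scaling it was -0.23 (adjusted p = 0.11).

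Kdm5b, which removes H3K4 methylation (chr1:134560171-134635285), changed most of the 5. It measured 4.47, 3.84, 3.38, 4.03 and 3.99 FPKM in GDM and 2.03, 2.48, 2.32, 2.23 and 2.21 in CTR, and the groups were far apart. The log2 fold change was 0.60 ± 0.07 (adjusted p = 1.2e-04, scaled 0.46, adjusted p = 5.3e-04). Kdm5b was 1.31 to 1.72 times the level of its paralogue Kdm5a in GDM libraries and 0.811 to 0.916 times in CTR libraries. Kdm5a itself was at 2.50 ± 0.15 and 2.66 ± 0.19 FPKM and did not pass on the deposited values (log2 fold change -0.06, adjusted p = 0.43), whereas after scaling it was lower (-0.20, adjusted p = 0.021).

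Kdm6b, the H3K27 demethylase JMJD3 (chr11:69398508-69413675), measured 13.4, 10.9, 11.3, 11.1 and 11.9 FPKM in GDM and 8.78, 9.27, 8.97, 9.29 and 8.85 in CTR. Its groups did not overlap, with a log2 fold change of 0.34 ± 0.06 (adjusted p = 0.0011, scaled 0.17, adjusted p = 0.036). In GDM muscle a writer (Ezh2) and an eraser (Kdm6b) of the same residue were thus both higher. Kdm4b measured 8.93, 8.55, 9.01, 7.77 and 8.74 FPKM in GDM and 6.94, 7.24, 6.99, 6.52 and 6.62 in CTR. Kdm4c measured 4.93, 4.18, 4.33, 4.19 and 4.23 FPKM in GDM and 3.44, 3.56, 3.63, 3.28 and 3.23 in CTR. Both demethylate H3K9 and H3K36, and both were free of overlap (log2 fold changes 0.29 ± 0.06 and 0.28 ± 0.06, adjusted p = 0.0018 and 0.0033). Both lost the call after scaling, at 0.12 (adjusted p = 0.11) and 0.13 (adjusted p = 0.097), and both then overlapped between the groups.

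HIF target genes outside the enzyme families were set beside these erasers. Of 22 listed, 14 were higher (35.1% of all tested genes), 1 was lower (the glycolytic enzyme gene Aldoa) and 7 did not pass. After scaling 12 were higher (19.2% of all tested genes). The median log2 fold change was 0.56 and 0.38 after scaling, against 0.15 and -0.00076 over all tested genes. The collagen prolyl hydroxylase gene P4ha1 went from 10.1 ± 0.96 FPKM in CTR to 36.5 ± 2.28 in GDM, and the glucose transporter gene Slc2a1 from 1.89 ± 0.42 to 15.8 ± 3.15. Their summed level, which is dominated by Aldoa, Ldha and Pgk1, was 1438 to 1709 FPKM in GDM and 1623 to 1804 in CTR. The part of oxygen sensing in the change of the erasers was not tested.

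**Figure D5:**
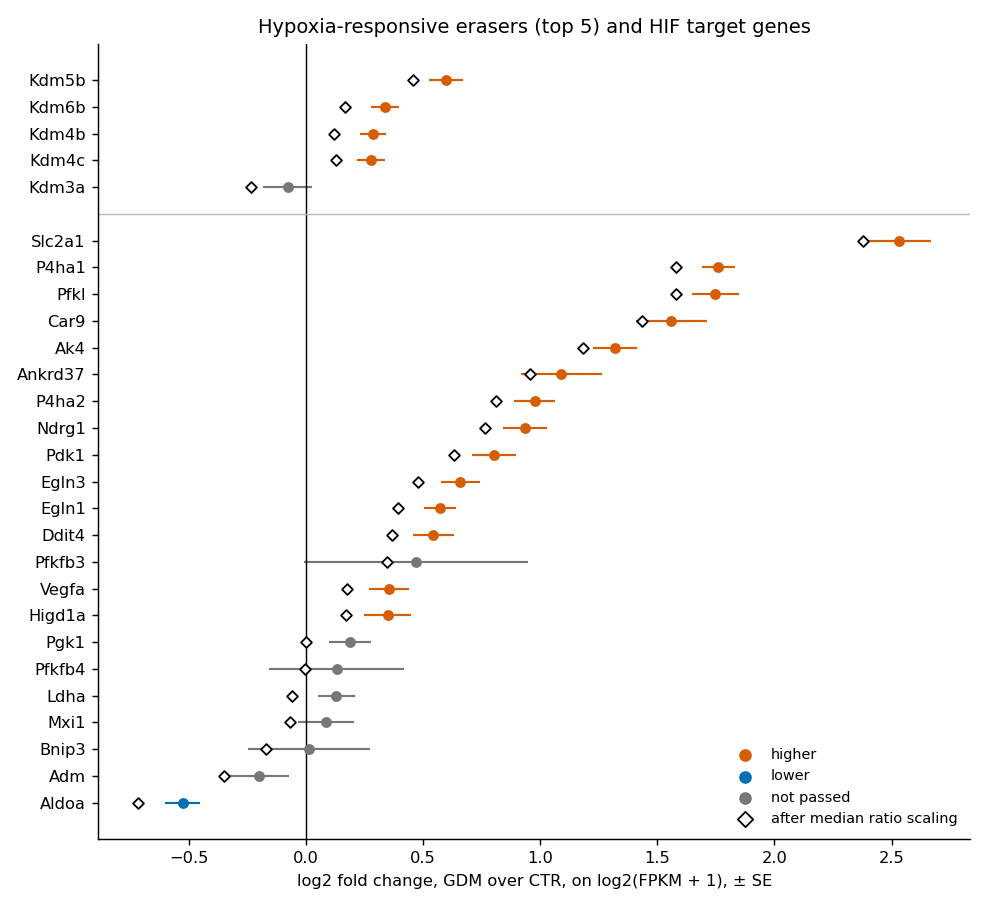
Log2 fold change (GDM over CTR, ± SE) of the 5 hypoxia-responsive erasers above the line and of 22 HIF target genes below it, with the value after median ratio scaling as open diamonds. The erasers lie between -0.08 (Kdm3a) and 0.60 (Kdm5b), and the targets between -0.53 (Aldoa) and 2.53 (Slc2a1).

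Among the other 9 tested erasers 2 were higher (35.1% of all tested genes), 0 lower and 7 not passed. After scaling 1 was higher and 1 lower, beside 19.2% and 19.4% of all tested genes. Kdm1a, encoding LSD1, the flavin enzyme that removes H3K4 methylation within the CoREST complex, measured 11.54, 12.7, 14.03, 11.2 and 11.9 FPKM in GDM and 9.73, 9.005, 9.76, 8.603 and 9.98 in CTR. The groups did not overlap, with a log2 fold change of 0.35 ± 0.07 (adjusted p = 0.0022) that was 0.17 after scaling (adjusted p = 0.089). After scaling the groups overlapped. Of 7 tested partners of KDM1A 6 were higher (35.1% of all tested genes) and 0 lower. After scaling 3 were higher (19.2% of all tested genes). The corepressor Rcor2 went from 3.02 ± 0.30 to 8.84 ± 1.25 FPKM and Rcor1 from 6.38 ± 0.75 to 11.0 ± 0.58 FPKM. Kdm2b, an H3K36 demethylase that also brings a polycomb complex to CpG islands, was at 3.01 ± 0.19 FPKM in GDM and 2.16 ± 0.15 in CTR (0.34, adjusted p = 0.0012, scaled 0.21, adjusted p = 0.023).

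Kdm2a, the other CpG island H3K36 demethylase, depended on single libraries. It was at 7.09, 6.22, 2.41, 6.89 and 6.15 FPKM in GDM and 4.76, 5.26, 5.27, 4.95 and 1.13 in CTR, so that GDM replicate 3 and CTR replicate 5 each stood far below their groups. With all libraries the log2 fold change of 0.39 ± 0.34 did not pass (adjusted p = 0.37). With both of these libraries left out, a choice made after the values were seen, it was 0.32 (adjusted p = 0.0068). Kdm4a, an H3K9 and H3K36 demethylase, had 9.79 FPKM in GDM replicate 1 and 4.14 to 5.00 in the other GDM libraries, against 3.87 to 5.00 in CTR, and did not pass. Kdm1b, Kdm3b, Kdm7a and Kdm8 had log2 fold changes from 0.07 to 0.18 and did not pass.

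The libraries of a group did not contribute evenly. GDM replicate 1 held the highest GDM value in 20 of the 44 tested members, and each other GDM library in 4 to 8. In CTR, the highest value came from replicate 2 in 12 members and the lowest from replicate 5 in 16. GDM replicate 1 also had the highest summed level of the keratinocyte markers (438 FPKM over 5 genes), whose part in these values was not tested. All 17 higher members were called without each of the 10 libraries in turn. With GDM replicates 1 and 3, which had the high keratinocyte sums, left out together, a choice made after their values were seen, 15 members were higher and 0 lower, Setd1b and Setd2 being lost. In that fit 3644 of 13363 genes were higher and 1084 lower.

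Enzymes outside the name rule and the supply of the methyl donor were counted for comparison. The shares over all tested genes were 35.1% higher and 10.9% lower, or 19.2% and 19.4% after scaling. Of 11 tested lysine methylation enzymes and related SET or Jumonji proteins outside the rule, 5 were higher, 0 lower and 6 not passed. After scaling 2 were higher. Jmjd6, counted here as a related Jumonji hydroxylase, went from 8.10 ± 0.67 to 15.3 ± 1.22 FPKM. Prdm2, an H3K9 methyltransferase, went from 4.50 ± 0.67 to 6.49 ± 0.31 FPKM. Genes that supply or use S-adenosylmethionine did not move together, with 2 higher (Mtr and Ahcy), 2 lower (Nnmt and Mat2b) and 2 not passed of 6 tested. After scaling Mtr alone was higher, Nnmt and Mat2b were lower, and Ahcy did not pass (0.16, adjusted p = 0.21). Nnmt, which spends the methyl donor on nicotinamide, fell from 8.16 ± 4.59 to 2.38 ± 0.37 FPKM, and Mtr, methionine synthase, rose from 3.56 ± 0.14 to 5.00 ± 0.68 FPKM. Mat2a, which makes the donor in most tissues, was at 41.0 ± 9.83 and 40.9 ± 15.4 FPKM and did not pass.

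Overlapping annotation limits some single values. At least 5% of the exonic bases of Kdm1b, Kdm2b, Kmt2e and Smyd2 are shared with a gene on the opposite strand that has at least 1 FPKM on average (Dek, Rnf34, Srpk2 and Gm37422 respectively). Whether the authors used strand in counting is not stated, so the level of each of these pairs may be mixed. Kdm3b shares 24.6% of its exonic bases with the opposite-strand gene Gm26538, for which no FPKM is given. On the same strand, Setd1a shares 51.8% of its exonic bases with Gm49388, which averaged 0.47 FPKM, and strand cannot separate that pair.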

How the data were processed

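RNA-seq of foetal limb muscle was used, 5 GDM and 5 CTR libraries of poly(A) RNA. As deposited, each gene has 1 FPKM value per library, which the authors computed with StringTie 1.3.4d after mapping with HISAT2 2.0.4 (mm10 in the submitters' processing notes, which list edgeR and DESeq2 too but give them no role). Genes without signal are listed at 0.0001. The fold ratio, its log2 value and the p-value and q-value columns hold the authors' own comparison and were not used.

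Genes with at least 1 FPKM in at least 5 libraries (13363 of 55401) were tested with limma 3.58.1 (trend, robust; R 4.3.3 with the package data.table, version 1.17.8) on log2(FPKM + 1), GDM against CTR, no covariate, adjusted over all of them by Benjamini-Hochberg, threshold 0.05. The fold change of low genes is understated on this scale. Coordinates came from GENCODE vM21 (GRCm38), in which 99.53% of identifiers were found, and promoters from RefSeq (GRCm38.p6). Python 3.11.15, pandas 2.3.3, numpy 2.4.6 and matplotlib 3.10.9 were used. Depth is an estimate, so no counting intervals are given. The fit was tested on simulated data.

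The members, gene lists and alternatives were chosen with earlier results of these data known. Values in every library were given for the hypoxia-responsive erasers, for Ezh1, Ezh2, Suv39h1, Suv39h2 and Kmt5a, for the 6 called members of largest change in each direction and for the 4 most abundant members whose call scaling removed. Other members were given by role, and listed partners by up to 2 examples in each direction with the smallest adjusted p, beside genes singled out after their values were seen (Suz12, Mat2a, Top2a). Alternatives were a pseudocount of 0.1, other filters, 4 scalings, the replicate number as a block, limma without trend and robust, and each library left out, with 2 pairs of libraries left out together added after the data were seen.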

Additional observations from a re-analysis of the deposited data

Results flagged for a closer look

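A single library stood far from the other 4 of its group in 9 of 92 gene and group combinations (gap over range above 0.71, Dixon's test), where chance alone gives about 1 in 20. Kdm2a was low in GDM replicate 3 (2.41 FPKM, others 6.15 to 7.09) and in CTR replicate 5 (1.13, others 4.76 to 5.27). GDM replicate 1 was high in Kdm4a (9.79 FPKM, others 4.14 to 5.00), Setd2 (7.13, others 6.05 to 6.35), Kdm4c (4.93, others 4.18 to 4.33) and Kdm3b (4.35, others 3.34 to 3.57). GDM replicate 1 also had the highest keratinocyte marker level (sum of 438 FPKM, against 1.85 to 94.5 in the other GDM libraries), whose part in these values was not tested. CTR replicate 1 was high in Kmt2a (2.70 FPKM, others 1.33 to 1.54) and low in Kmt2e (5.14, others 5.66 to 5.79). Setd6 was high in GDM replicate 2 (4.28 FPKM, others 1.79 to 2.50). The called members among these, Setd2, Kmt2e and Kdm4c, were also called without the library concerned.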

How the results depend on the processing

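Scaling between libraries was the setting that moved counts by over 1.5 times. Median ratio scaling gave 9 members higher and 2 lower, 7 with every GDM library above (15.9%, against 14.7% of all tested genes) and 1 below, a member median of 0.081, and 2567 genes higher and 2592 lower over all tested genes. Quantile normalization gave 10 and 2 members, 8 above and 1 below, a median of 0.105, and 2881 and 2343 genes. Rescaling without mitochondrially encoded genes gave 20 of 44 members higher (Setd5, Kmt5c and Kdm1b added). Over all 13363 tested genes it gave 5219 higher and a median of 0.19. A filter of 1 FPKM in every library gave 15 members higher of 41 tested, beside 4201 higher of 11341 genes. Without single libraries, 17 to 19 members were higher and 0 lower, 17 to 20 lay above and 0 below, the median was 0.219 to 0.286, and 4180 to 4602 genes were higher and 1281 to 1472 lower. Same-numbered libraries did not deviate together (correlations -0.0723 to -0.0191, 0 of 10 closest to their own number). The fit with a replicate block called 17 members, losing Setd1b (adjusted p = 0.055) and adding Kmt2a (0.020), beside 4171 genes higher over all tested genes. Over 22 alternatives, 2 of them added after the data were seen, Ezh2, Kdm2b, Kdm5b, Kdm6b, Setdb1, Smyd5 and Suv39h1 were called in each. Suv39h2 and Nsd2 were called in all 21 that tested them, since that filter left both out. No call was reversed. Depth is known only as an estimate, levels near 1 FPKM rest on few fragments, and litter is not given.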
